A study of Mus musculus with 2 samples.

Results

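The genes described are 32 members of the p53 pathway. They are Trp53, which encodes p53 itself, its inhibitors Mdm2 and Mdm4, and 29 genes that p53 is known to switch on. The members were named by symbol from knowledge of the pathway, without a rule on their measured values. Earlier results of these data were known at that time. All 32 members were found among 26893 named genes of the count tables. They were measured in single cells of mouse spermatogonial cultures that hold 2 kinds of cell, germ cells and feeder fibroblasts.

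p53 is a transcription factor that is kept low by Mdm2, which marks it for degradation, and by Mdm4, which blocks its activity. DNA damage and other stresses free p53, which then switches on genes that halt the cell cycle, start cell death, repair DNA or limit growth signals, and also Mdm2 itself, so that the response is self-limiting. In the male germline p53 is known for removing damaged germ cells, and its level is set mostly by protein stability, which a count of transcripts does not see.

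Undifferentiated spermatogonia, the germ cells among which the stem cells of the testis are found, came from adult C57BL/6 testes by magnetic selection for THY1. They were kept in primary culture without serum, with GDNF and bFGF, on SNL76/7 mouse embryonic fibroblasts treated with mitomycin, an agent that damages DNA and stops division. For transfection they were taken off the feeder layer and received, on plastic and with 2 µL Lipofectamine, 75 pmol of a non-targeted control siRNA or of one that targets Chd4, for 24 h. Chd4 encodes the motor subunit of NuRD, a complex that remodels chromatin. Equal cell numbers of 3 biological replicates were pooled into 1 library per treatment, so no difference has a replicate check, and no test across replicates was possible. "Higher" and "lower" below compare these 2 libraries or 2 kinds of cell within one, and each 95% interval covers counting error only.

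A cell was called a germ cell where it held more UMIs (counted molecules) of the germline genes Dazl and Ddx4 than of the fibroblast genes Col1a1 and Fn1, and a feeder cell where it held fewer. This gave 728 germ and 79 feeder cells in the control library and 760 and 89 in the Chd4 siRNA library. Median depth was 15282 and 15581.5 UMIs in germ cells and 38655 and 40805 in feeder cells. The 12 germ cell markers summed to 2576 and 2821 CPM (UMIs of the gene per 1000000 UMIs of the class) in germ cells against 99.5 and 88.2 CPM in feeder cells, and the 12 fibroblast markers to 91.5 and 95.3 CPM against 3982 and 4351 CPM, with Lum at 0 in feeder cells. Of other testis cells, 5 macrophage markers summed to 14.0 and 15.3 CPM in germ and 1.26 and 5.54 CPM in feeder cells, with Adgre1 and C1qa at 0 throughout. The 4 Leydig markers summed to at most 2.50 CPM, with Cyp11a1, Hsd3b1 and Insl3 at 0 throughout, and the 4 endothelial markers to at most 12.0 CPM. The 6 Sertoli markers summed to 18.6 and 18.9 CPM in germ and 254 and 265 CPM in feeder cells, where Sox9 was the one with enough UMIs to be counted between the classes. Chd4 went from 536 to 253 CPM in germ cells, 47.2% of control (45.2 to 49.3), and from 155 to 52.9 CPM in feeder cells, 34.2% of control (28.8 to 40.5).

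Some of the member genes carry, in the DNA around their start, letters that match the known binding motif of p53. The protein binds a pair of half-sites of 10 bases each, and the p53 half-site consensus was searched on both strands in the RefSeq promoter windows of the members, each reaching from 250 bases before to 50 bases after a start, in GRCm38.p6. Of the 32 members, 23 had a window. A half-site without mismatch was found for 11 of these 23 genes (47.8%), against 9.55% of 27025 genes with a window. A pair of half-sites with a spacer of up to 13 bases and up to 2 mismatches was found for 6 of the 23 (26.1%), namely Bax, Ccng1, Cdkn1a, Gadd45a, Rps27l and Sesn1, against 4.71% of all genes. With up to 1 mismatch these were 3 of the 23, against 0.718% of all genes. Some genes had more than 1 window. Per window, a half-site was found in 12 of 32 (37.5%), against 8.36% of 32851 windows. Most members were named as known p53 targets, so an excess of its motif among them is no independent result. The 4 stretches printed here belong to members on which the results below turn, and were chosen with those results known. They read 5′ to 3′ on the strand of the gene, with the half-sites in capitals.
Cdkn1a: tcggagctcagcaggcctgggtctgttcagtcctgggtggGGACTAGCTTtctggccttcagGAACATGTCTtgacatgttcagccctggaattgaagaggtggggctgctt
Ccng1: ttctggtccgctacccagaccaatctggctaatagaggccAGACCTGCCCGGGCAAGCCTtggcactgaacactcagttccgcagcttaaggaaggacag
Rps27l: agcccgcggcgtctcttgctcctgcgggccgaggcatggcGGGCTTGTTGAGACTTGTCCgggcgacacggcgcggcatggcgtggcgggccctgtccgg
Bax: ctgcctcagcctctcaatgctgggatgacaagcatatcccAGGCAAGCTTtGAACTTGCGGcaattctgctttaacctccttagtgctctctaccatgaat

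The Cdkn1a stretch lies at chr17:29090866-29090977 on the plus strand, just before the gene (chr17:29090976-29100727) and with 2 bases in its first exon, and its half-sites have 0 mismatches and a spacer of 12 bases. The Ccng1 stretch lies at chr11:40755422-40755521 on the minus strand, upstream of the gene (chr11:40748552-40755311), with 1 mismatch and no spacer. The Rps27l stretch, at chr9:66946256-66946355 on the plus strand, also has 1 mismatch and no spacer. It precedes a second start inside the gene (chr9:66946086-66949516) and has 1 base in an exon. The Bax stretch lies at chr7:45467039-45467139 on the minus strand, upstream of the gene (chr7:45461697-45466898), with 2 mismatches and a spacer of 1 base. A match describes the letters and shows neither binding nor a cause, and a window without a match says nothing about sites elsewhere in the gene.

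Feeder cells held far more Cdkn1a than germ cells, together with most of the cell cycle members and with Phlda3, Zmat3 and Rps27l. Germ cells held more of Xpc, Bbc3 and Ptp4a3, and levels of Trp53, its inhibitors and most counted cell death members differed by less than 2-fold. A member was counted higher in a class where it was at least 2-fold higher there in both libraries, among genes with at least 200 UMIs over the 2 classes in each library. Of 20 members that could be counted, 7 were higher in feeder cells, where 14.1% of 7148 genes were, and 3 were higher in germ cells, where 30.9% were. The median log2 ratio of feeder over germ was 0.51 and 0.47 over the members in the control and Chd4 siRNA library, and -0.43 and -0.50 over all genes. With every cell thinned to 9000 UMIs, since feeder cells were the deeper class, 4 members had enough UMIs and were higher in feeder cells. The medians over the members that still reached 200 UMIs were 0.16 and 0.19. They cover fewer members, so they do not show how far thinning moved the ratios. The thinned log2 ratios of Gadd45a (2.08 and 2.14), Plk2 (2.25 and 2.48) and Zmat3 (3.73 and 3.35) stayed over 2-fold, on too few UMIs to be counted. Bbc3, also too sparse once thinned, came under 2-fold in both libraries, with log2 ratios of -0.60 and -0.90.

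**Figure D1:**
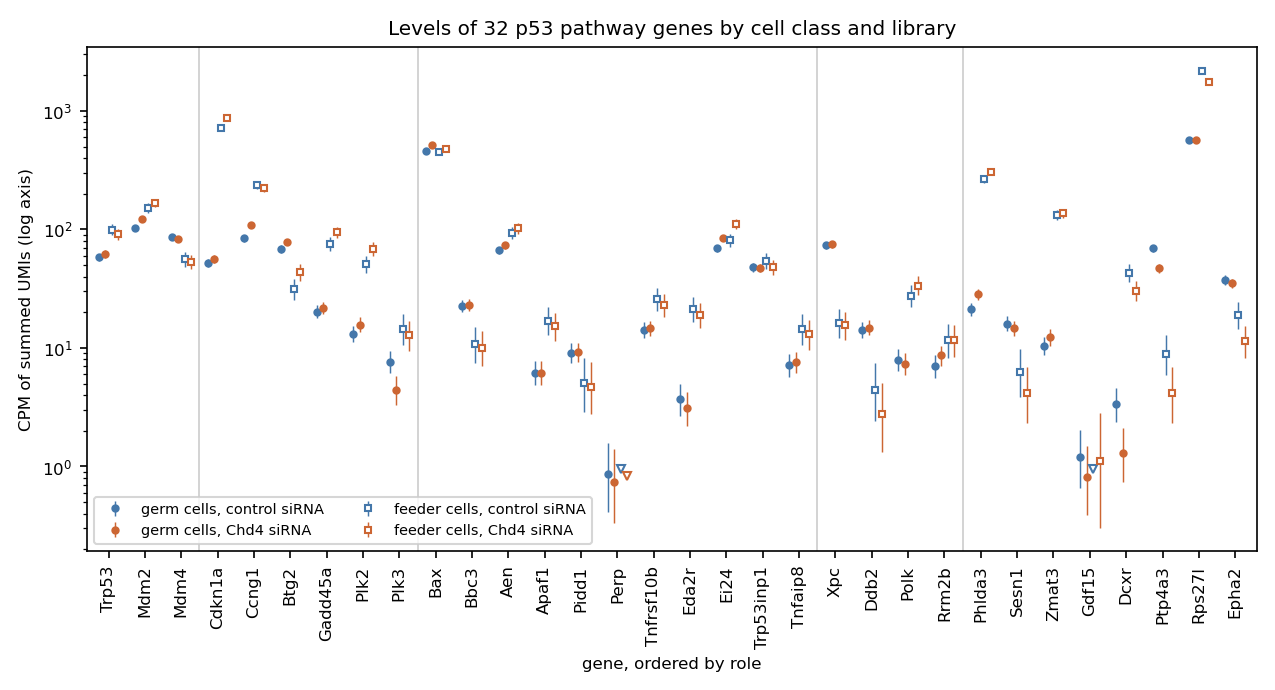
Level of each of the 32 members in CPM on a log axis, with 1 marker each for germ and feeder cells of the control and of the Chd4 siRNA library; triangles mark a count of 0 at the level that 3 UMIs would give. Cdkn1a, Phlda3 and Zmat3 lie over 10-fold apart between the classes in both libraries, while the markers of Bax nearly coincide.

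Among p53 and its inhibitors, Trp53 stood at 58.0 and 62.0 CPM in germ cells of the control and Chd4 siRNA library and at 99.5 and 90.7 CPM in feeder cells. Mdm2, both inhibitor and target of p53, was at 104 and 121 CPM in germ cells and 152 and 167 CPM in feeder cells. Mdm4 had the opposite order, with 86.2 and 83.2 CPM in germ cells and 55.8 and 53.2 CPM in feeder cells. None of these 3 genes reached a 2-fold difference between the classes in either library.

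Of the 6 cell cycle members, 5 could be counted, and 4 of these 5 were higher in feeder cells. Cdkn1a, which encodes the kinase inhibitor p21 that stops cells before S phase, stood at 52.0 and 56.6 CPM (603 and 694 UMIs) in germ cells. In feeder cells it was at 720 and 869 CPM (2285 and 3136 UMIs). Its log2 ratio was 3.79 (3.66 to 3.92) in the control library and 3.94 (3.82 to 4.06) in the Chd4 siRNA library, or 13.9-fold and 15.3-fold. Gadd45a, a stress protein that binds p21 and PCNA, was at 20.2 and 21.8 CPM in germ cells and at 75.6 and 94.3 CPM in feeder cells. The polo-like kinase gene Plk2 was at 13.2 and 15.8 CPM in germ cells and at 50.7 and 68.5 CPM in feeder cells. In both of these genes the feeder level was about the same multiple of the germ level, with log2 ratios of 1.90 and 2.11 for Gadd45a and 1.94 and 2.12 for Plk2. Ccng1, which encodes cyclin G1, a partner of phosphatase 2A in the control of Mdm2, had 83.9 and 110 CPM in germ cells and 236 and 222 CPM in feeder cells. The ratio for Ccng1 was 1.49 (1.35 to 1.63) and 1.01 (0.88 to 1.14) on the log2 scale, so in the Chd4 siRNA library it lies at the 2-fold limit. Btg2, an anti-proliferative gene, was higher in germ cells, at 68.2 and 78.5 CPM against 31.2 and 43.5 CPM, but by 2-fold in the control library alone. Plk3 was too sparse to be counted, with 89 and 54 UMIs in germ cells and 46 in feeder cells of each library.

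Of the 11 cell death members 6 could be counted, of which 0 were higher in feeder cells and 1 in germ cells. Bax, the protein that opens the outer mitochondrial membrane, stood at 459 and 517 CPM in germ cells and at 450 and 480 CPM in feeder cells, and its log2 ratio of -0.11 in the Chd4 siRNA library turned to 0.12 with TMM and 0.16 with DESeq2 scaling. Bbc3, which encodes PUMA, a BH3-only activator of Bax, was counted higher in germ cells, with 22.6 and 23.2 CPM against 10.7 and 9.98 CPM. Its feeder levels rest on 34 and 36 UMIs, and in thinned cells the difference was under 2-fold. Aen, a nuclease that cuts DNA in dying cells, had 66.7 and 73.5 CPM in germ cells and 92.6 and 102 CPM in feeder cells. Ei24 had 69.2 and 85.2 CPM in germ cells and 81.3 and 111 CPM in feeder cells. The death receptor gene Tnfrsf10b had 14.1 and 14.7 CPM in germ cells and 25.8 and 23.0 CPM in feeder cells. The remaining cell death members were even between the classes or sparse. Trp53inp1, a nuclear cofactor of p53, was nearly equal, with 47.8 and 47.1 CPM in germ cells and 54.5 and 48.0 CPM in feeder cells.

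Eda2r, a receptor of the TNF receptor family, and Apaf1, the core of the apoptosome, had fewer than 200 UMIs. Both were higher in feeder cells of both libraries. Eda2r stood there at 21.4 and 18.9 CPM against 3.71 and 3.10 in germ cells, and Apaf1 at 17.0 and 15.2 against 6.20 and 6.20. Tnfaip8 had 46 to 93 UMIs and Pidd1 16 to 113 UMIs in each class and library. Perp, a membrane protein gene, had 10 and 9 UMIs in germ cells and 0 in feeder cells, which allows up to 0.945 and 0.832 CPM there, a limit no lower than its level of 0.862 and 0.735 CPM in germ cells. Perp was therefore close to undetected in both classes.

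The 4 repair members went both ways. Xpc, the damage sensor of nucleotide excision repair, stood at 73.6 and 74.7 CPM in germ cells and at 16.4 and 15.5 CPM in feeder cells, a log2 ratio of -2.17 (-2.60 to -1.76) and -2.27 (-2.68 to -1.88). Ddb2, which recognises ultraviolet damage in the same pathway, had 14.1 and 14.9 CPM in germ cells and 4.41 and 2.77 CPM in feeder cells, on fewer than 200 UMIs. Polk, a polymerase that copies past lesions, stood above the germ level in feeder cells, at 27.4 and 33.5 CPM against 7.93 and 7.35 CPM, but the control library had too few UMIs to count it. Rrm2b, a ribonucleotide reductase subunit, did so by less, on 37 to 106 UMIs per class and library.

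The 8 other members split between the classes. Phlda3, an inhibitor of AKT signalling, stood at 21.1 and 28.2 CPM in germ cells and at 265 and 304 CPM in feeder cells, a log2 ratio of 3.65 (3.44 to 3.86) and 3.43 (3.25 to 3.61). Zmat3, an RNA-binding regulator of splicing and RNA stability, had 10.4 and 12.3 CPM against 132 and 137 CPM, with ratios of 3.66 and 3.48. Rps27l, a p53-induced relative of a ribosomal protein gene, had 565 and 572 CPM in germ cells and 2163 and 1760 CPM in feeder cells. These 3 genes were higher in feeder cells of both libraries, with Rps27l closest to the limit, at log2 ratios of 1.94 and 1.62. Rps27l resembles the ribosomal protein gene Rps27, so reads of one could be counted for the other.

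Ptp4a3, a phosphatase linked to cell migration, had the reverse pattern, with 69.3 and 47.0 CPM in germ cells and 8.82 and 4.16 CPM in feeder cells, a log2 ratio of -2.97 (-3.57 to -2.43) and -3.50 (-4.35 to -2.77). Sesn1, an antagonist of mTORC1 signalling, had 16.0 and 14.6 CPM in germ cells and 6.30 and 4.16 CPM in feeder cells, and the receptor kinase gene Epha2 had 37.3 and 35.0 CPM against 18.9 and 11.4 CPM. Both stood higher in germ cells, but neither met the count rule in both libraries. Dcxr, a carbonyl reductase gene, had 39 and 16 UMIs in germ cells and 137 and 109 UMIs in feeder cells. Gdf15, a stress-induced secreted factor, had 14 and 10 UMIs in germ cells and 0 and 4 UMIs in feeder cells, so that no difference between the classes was detectable at this depth.

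RNA freed from feeder cells can enter germ cell droplets. The 10 fibroblast markers that did not make the split stood in germ cells at 1.40% and 1.45% of their feeder level, with single genes from 0.669% to 4.70% and from 0.911% to 6.79%. Cdkn1a stood there at 7.22% and 6.52% of its feeder level, Phlda3 at 7.98% and 9.30%, and Zmat3 at 7.92% and 8.98%. The share of the germ level of these 3 genes that came from feeder RNA was not tested. Scaling by TMM would add 0.18 and 0.22 to every log2 ratio of feeder over germ in the 2 libraries, and DESeq2 size factors 0.23 and 0.27. Of proliferation genes, 9 of 22 G2/M genes and 11 of 20 S phase genes were counted higher in germ cells, where 30.9% of all genes were. In feeder cells 0 were higher, against 14.1% of all genes. The median log2 ratio of feeder over germ was -0.91 and -1.43 over G2/M genes and -1.11 and -1.40 over S phase genes. Over all genes it was -0.43 and -0.50. The type of cell and the mitomycin that the feeder cells alone received cannot be told apart as the source of differences between the classes.

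In germ cells, Chd4 siRNA left most members near their control level. Ccng1, Phlda3 and Ei24 were at least 1.2-fold higher, and Ptp4a3 was lower. This fold was counted among genes with at least 200 UMIs over both libraries, which 23 of the 32 members reached. Higher members numbered 3 of 23, against 8.31% of 8257 genes, and lower members 1 of 23, against 5.62%. Intervals lay above 1 for 7 of 23 members, against 19.0% of genes, and below 1 for 1 member, against 8.43%. The median log2 ratio was 0.10 over the members and 0.05 over all genes, and 14 of 23 members lay above the median of all genes. The UMIs of 30 targets together, all members but Trp53 and Mdm4, went from 1882 to 2013 CPM, a log2 ratio of 0.10 (0.07 to 0.12), and their sum without the abundant Bax and Rps27l gave 0.11.

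**Figure D2:**
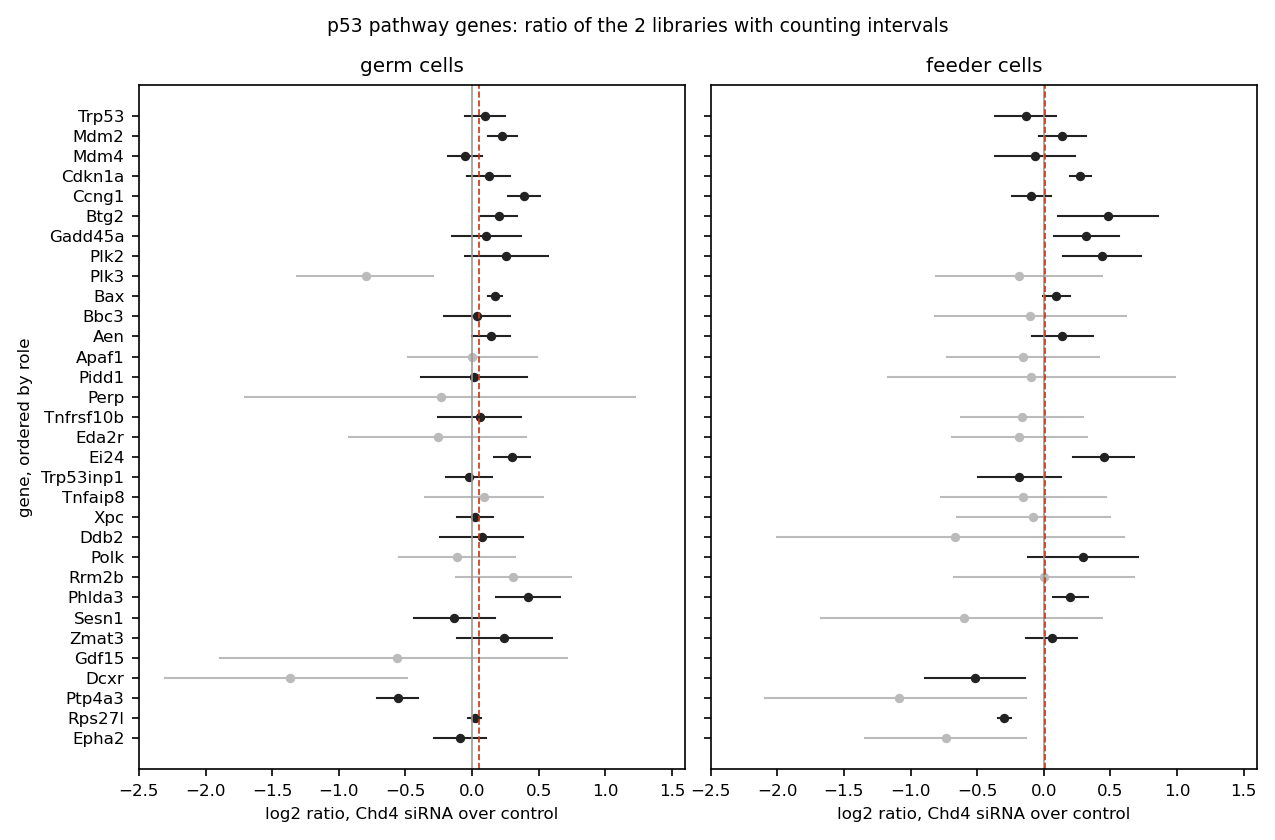
Log2 ratio of Chd4 siRNA over control for each member in germ cells and in feeder cells, with the 95% interval for counting error; grey marks members under 200 UMIs and the dashed red line the median of all genes. In germ cells Ccng1, Phlda3 and Ei24 lie on the right and Ptp4a3 on the left, and in feeder cells Cdkn1a, Ei24, Plk2, Btg2 and Gadd45a lie on the right.

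Trp53 itself had 58.0 CPM in control and 62.0 CPM in Chd4 siRNA germ cells, with an interval of the log2 ratio from -0.06 to 0.25. Mdm2 went from 104 to 121 CPM, a log2 ratio of 0.23 (0.12 to 0.34), which is above 1 in counting error but under 1.2-fold. Mdm4 was at 86.2 and 83.2 CPM, a ratio of -0.05 (-0.18 to 0.08). Of p53 and its 2 inhibitors, then, Mdm2 alone had an interval that left out a ratio of 1.

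All 5 cell cycle members that could be counted had positive log2 ratios, with a median of 0.20, where 5254 of 8257 genes were positive, and 1 of them reached 1.2-fold. That member, Ccng1, went from 83.9 CPM (974 UMIs) to 110 CPM (1347 UMIs), a log2 ratio of 0.39 (0.27 to 0.51). Btg2 went from 68.2 to 78.5 CPM, a ratio of 0.20 (0.07 to 0.34), and Plk2 from 13.2 to 15.8 CPM, with an interval from -0.06 to 0.57. Cdkn1a was at 52.0 and 56.6 CPM, a log2 ratio of 0.12 (-0.03 to 0.28), so a difference of its sum was not detectable at this depth. Gadd45a was at 20.2 and 21.8 CPM (-0.15 to 0.37). Plk3, with 89 and 54 UMIs, stood apart from the other cell cycle members with a log2 ratio of -0.80 (-1.31 to -0.30), below the count minimum.

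Among the cell death members the median log2 ratio was 0.06. Ei24, an endoplasmic reticulum protein with roles in apoptosis and autophagy, went from 69.2 CPM (803 UMIs) to 85.2 CPM (1044 UMIs), a ratio of 0.30 (0.17 to 0.44). Bax went from 459 to 517 CPM, and its many UMIs (5323 and 6332) put the small ratio of 0.17 (0.12 to 0.23) beyond counting error. Aen was at 66.7 and 73.5 CPM, with a ratio of 0.14 and a lower bound at 0.00. Bbc3 (22.6 and 23.2 CPM), Tnfrsf10b (14.1 and 14.7), Trp53inp1 (47.8 and 47.1) and Pidd1 (9.13 and 9.22) had intervals that held a ratio of 1.

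The repair genes Xpc and Ddb2 had log2 ratios of 0.02 and 0.07, with intervals on both sides of 0. Phlda3 went from 21.1 CPM (245 UMIs) to 28.2 CPM (346 UMIs), a log2 ratio of 0.42 (0.18 to 0.66). Ptp4a3 went the other way, from 69.3 CPM (804 UMIs) to 47.0 CPM (576 UMIs), a ratio of -0.56 (-0.72 to -0.40), which is 0.679 of control. It was the member farthest from its control level among those counted. Zmat3 (10.4 and 12.3 CPM), Rps27l (565 and 572), Sesn1 (16.0 and 14.6) and Epha2 (37.3 and 35.0) had intervals that held a ratio of 1. The ratio of Rps27l, 0.02 (-0.03 to 0.07), was the most closely bounded. Of the 9 members under 200 UMIs, Dcxr had a ratio of -1.36 (-2.30 to -0.49) on 39 and 16 UMIs, and the other 7 beside Plk3 had intervals that held 1.

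The higher calls of Ccng1 and Phlda3 changed with few cells, a check added after the data had been seen. With each cell thinned to 9000 UMIs their ratios were 0.36 and 0.51. Where the 16 and 21 germ cells with 4 or more Cdkn1a UMIs were left out as well, the ratio of Ccng1 was 0.23 and that of Phlda3 0.22, both under 1.2-fold, while Ei24 stood at 0.33. Without those cells 1 member was counted higher. Those cells held the most Ccng1 and Phlda3, more so in the Chd4 siRNA library. The cells were left out by a gene that went with both, so this check cannot show what set the ratios. The source of their fall was not tested. Split by the summed UMIs of G2/M genes, Ccng1 had log2 ratios of 0.63, 0.18 and 0.21 in cells with up to 7, 8 to 14 and over 14 such UMIs, Phlda3 0.15, 0.21 and 1.14, and Ei24 0.55, -0.07 and 0.50. The lower level of Ptp4a3 had close values in the same 3 groups, -0.55, -0.63 and -0.58. Differences between these groups were not tested. Beside the members, 3 of 8 integrated stress genes were counted higher in germ cells (median 0.23), against 8.31% of all genes. Of the dissociation-induced genes 1 of 8 was, near that share. G2/M genes had a median of -0.07 and all genes 0.05. The part of the stress, dissociation-induced and G2/M genes in the members' ratios was not tested.

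In feeder cells Cdkn1a, Btg2, Gadd45a and Plk2 of the cell cycle members stood higher with Chd4 siRNA, while Rps27l and Dcxr were lower. Here 17 members could be counted. At least 1.2-fold higher were 6 of 17, against 14.9% of 4249 genes, and lower 2 of 17, against 15.5%. Intervals lay above 1 for 6 members, against 17.0% of genes, and below 1 for 2, against 15.7%. The median log2 ratio of the members was 0.14, and of all genes 0.01.

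Cdkn1a went from 720 CPM (2285 UMIs) to 869 CPM (3136 UMIs) in feeder cells, a log2 ratio of 0.27 (0.19 to 0.35). Ei24 went from 81.3 to 111 CPM, a ratio of 0.45 (0.22 to 0.68), and was the one member counted higher in both classes. Plk2 went from 50.7 to 68.5 CPM (0.43, from 0.14 to 0.73). Gadd45a went from 75.6 to 94.3 CPM (0.32, from 0.08 to 0.56), and Btg2 from 31.2 to 43.5 CPM (0.48, from 0.11 to 0.86). Thus 4 of the 5 counted cell cycle members were higher. The exception was Ccng1, at 236 and 222 CPM with a ratio of -0.09 (-0.24 to 0.05), or 0.26 in thinned cells, the same gene that was higher in germ cells; the difference between the classes was not tested. Polk, at 27.4 and 33.5 CPM, passed 1.2-fold with an interval from -0.12 to 0.71.

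Rps27l went from 2163 to 1760 CPM in feeder cells, a log2 ratio of -0.30 (-0.35 to -0.25), and Dcxr from 43.2 to 30.2 CPM, a ratio of -0.51 (-0.89 to -0.14). Phlda3, from 265 to 304 CPM (0.20, from 0.07 to 0.33), was higher beyond counting error but by less than 1.2-fold. Trp53 (99.5 and 90.7 CPM, -0.36 to 0.09), Mdm2 (152 and 167 CPM, -0.04 to 0.32) and Mdm4 (55.8 and 53.2 CPM, -0.37 to 0.24) had intervals that held 1, as had Bax, Aen, Zmat3 and Trp53inp1. Because Rps27l holds many of the UMIs, the 30 targets together had a log2 ratio of -0.04 (-0.07 to -0.01), and without Bax and Rps27l 0.16 (0.11 to 0.20). Of the 15 members not counted, Ptp4a3, on 28 and 15 UMIs, and Epha2, on 60 and 41, had intervals below 1.

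The feeder ratios rest on 79 and 89 cells. With cells thinned to 9000 UMIs, 2 members were counted higher, Cdkn1a at 0.40 and Phlda3 at 0.35, and 0 lower. Gadd45a then had a ratio of 0.07 and Btg2 of 0.09, while the mean of per-cell CPM gave 1.07 for Btg2. Other programmes differed between the libraries in the same cells. The G2/M genes had a median log2 ratio of -0.47, with 6 of 7 counted lower, and the S phase genes -0.49, with 5 of 8 lower. The integrated stress genes had 0.24, with 2 of 6 higher, and the dissociation-induced genes 0.26, with 3 of 5 higher and 1 lower. Of all genes 15.5% were lower and 14.9% higher, with a median of 0.01. The part of these programmes in the members' ratios was not tested.

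Cells also differed within a library, and Cdkn1a divided germ cells more than most members did. To compare cells at one depth, each was thinned to 9000 UMIs, which left 666 and 697 germ and 75 and 84 feeder cells. A Cdkn1a UMI was then found in 26.4% of germ cells of each library (36.1% and 34.6% before thinning) and in 92.0% and 91.7% of feeder cells (96.2% and 96.6%). The variance of Cdkn1a over its mean, which is 1 for counting noise alone, was 2.18 and 2.89 in germ cells, and that of Ccng1 was 2.31 and 3.14. Trp53, at 1.04 in both libraries, and Mdm4, at 1.05 and 0.998, hardly exceeded counting noise. In feeder cells the value for Cdkn1a was 5.93 and 13.8, with up to 26 and 55 UMIs in a cell.

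Germ cells with more Cdkn1a also held more of other p53 targets. In the control library 490 cells had 0 Cdkn1a UMIs, 160 had 1 to 3 and 16 had 4 or more, and in the Chd4 siRNA library 513, 163 and 21, limits set after the data had been seen. Ccng1 averaged 0.49, 1.33 and 2.25 UMIs per thinned cell in these strata of the control library, and 0.65, 1.35 and 4.95 in those of the Chd4 siRNA library. The interval of the highest stratum, 1.58 to 3.11 and 4.05 to 6.00, lay clear of the lowest in each library. Phlda3 averaged 0.11, 0.33 and 0.56 UMIs, and 0.14, 0.35 and 2.05. Rps27l averaged 4.38, 5.82 and 8.31, and 4.45, 6.09 and 8.19. These 3 genes were higher at each step in both libraries. So did Btg2, at 0.56, 0.79 and 1.62 and at 0.60, 0.82 and 1.29, and Bbc3, at 0.16, 0.27 and 0.81 and at 0.18, 0.22 and 0.52. Trp53inp1 went from 0.37 through 0.54 to 1.12, and from 0.37 through 0.53 to 1.05.

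**Figure D3:**
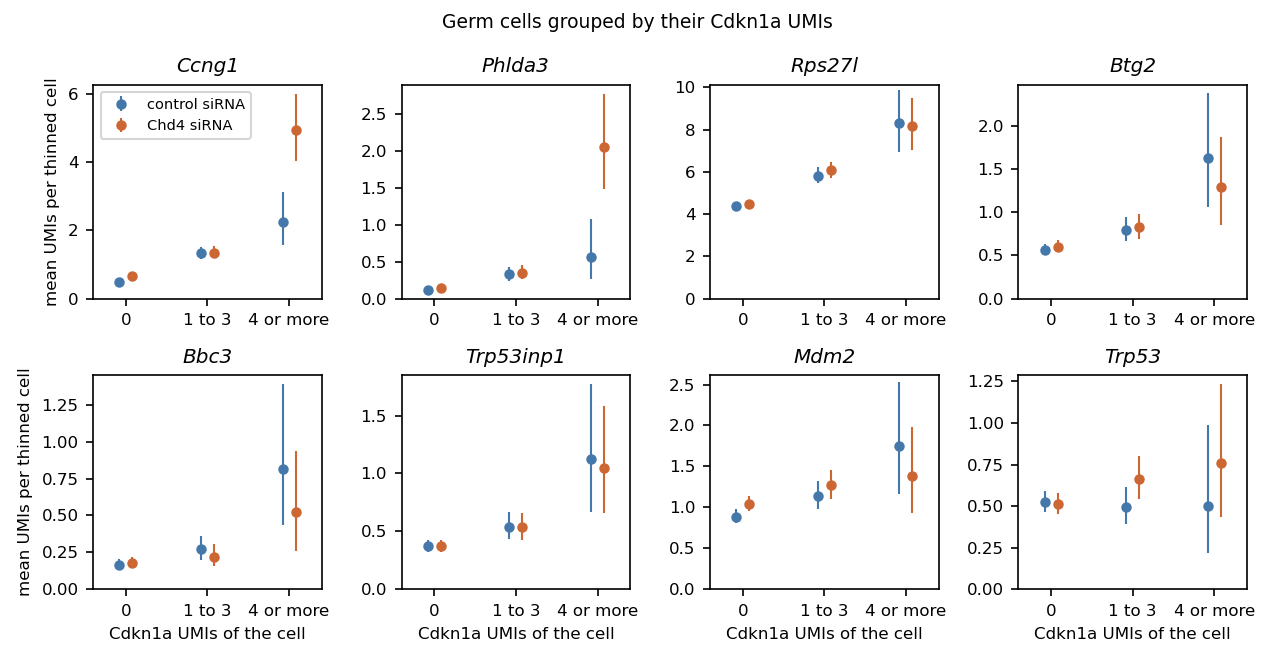
Mean UMIs per germ cell thinned to 9000 UMIs, with 95% intervals for counting error, for 8 genes in cells with 0, 1 to 3 and 4 or more Cdkn1a UMIs in each library. Ccng1, Phlda3 and Rps27l step up with Cdkn1a in both libraries, and Trp53 keeps overlapping intervals.

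With at least 20 UMIs over the lowest and highest stratum, 27 members could be compared in each library. The interval of the highest stratum lay above that of the lowest for 11 of 27 in the control library, against 1.35% of genes, and for 10 of 27 in the Chd4 siRNA library, against 2.30%, and below it for 0 in both. Named in both libraries were Ccng1, Btg2, Plk2, Bbc3, Ei24, Trp53inp1, Phlda3 and Rps27l. Mdm2, Bax and Epha2 were apart in the control library, and Tnfrsf10b and Zmat3 in the Chd4 siRNA library. Trp53 was not among them, at 0.52, 0.49 and 0.50 UMIs and at 0.51, 0.66 and 0.76, and nor was Mdm4, at 0.75, 0.77 and 0.94 and at 0.73, 0.87 and 1.10.

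Depth, feeder RNA, germ markers, cell cycle and stress genes were compared across the same strata. Median depth before thinning was 15576 UMIs in the highest and 15564.5 in the lowest stratum of the control library, and 17077 and 15839 in the Chd4 siRNA library, deeper in the highest stratum in both. Col1a1 and Fn1 together averaged 0.52, 0.67 and 0.31 UMIs, and 0.50, 0.50 and 0.57. Dazl and Ddx4 together averaged 10.4, 9.84 and 8.31, and 10.9, 11.0 and 11.8. G2/M genes stood higher with Cdkn1a, at 16.0, 18.8 and 22.1 and at 14.0, 20.3 and 19.7. The integrated stress genes averaged 5.82, 6.64 and 5.12 in the control library and 6.17, 8.53 and 11.3 in the Chd4 siRNA library. The part of depth, the cell cycle and stress genes in the pattern was not tested.

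Ccng1, Phlda3, Rps27l and Mdm2 stood higher with Cdkn1a in feeder cells. Across 27, 22 and 26 cells with 0 to 2, 3 to 6 and 7 or more Cdkn1a UMIs in the control library, Ccng1 averaged 0.81, 2.00 and 2.54 UMIs and Mdm2 0.44, 0.95 and 1.85. Across 25, 32 and 27 cells of the Chd4 siRNA library, Ccng1 averaged 1.08, 1.97 and 3.22 and Mdm2 0.84, 0.66 and 2.37. Of 13 members compared, 4 were apart in the control library (Mdm2, Ccng1, Phlda3 and Rps27l), against 1.38% of genes, and 5 in the Chd4 siRNA library (these and Zmat3), against 1.88%.

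Most pairs of members had r near 0 from cell to cell in germ cells. Among 10 members with at least 0.5 UMI per thinned cell, the 45 pairs had a median Pearson r of 0.03 in the control library (666 cells) and 0.06 in the Chd4 siRNA library (697 cells), and 1 pair, Ccng1 with Rps27l, exceeded 0.2 in both, at 0.28 and 0.22. In the Chd4 siRNA library 5 pairs exceeded 0.2, among them Bax with Rps27l, at 0.19 and 0.30 in the 2 libraries, and Ccng1 with Btg2, at 0.12 and 0.25. Of the 10 members, all but Bax and Rps27l averaged at most 1.11 UMIs per thinned cell. At such counts counting noise alone draws r toward 0, so a low r does not show that members vary apart. Cdkn1a was below the limit for pairs and was added after its strata had been seen, as was Phlda3. Cdkn1a had r of 0.37 and 0.46 with Ccng1 and 0.24 and 0.48 with Phlda3, and, without the 2 cells highest in Cdkn1a, 0.35 and 0.41 and 0.24 and 0.44. Ccng1 with Phlda3 had 0.29 and 0.35. Cdkn1a had 0.01 and 0.06 with Trp53, and with Col1a1 plus Fn1 0.03 and 0.002.

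**Figure D4:**
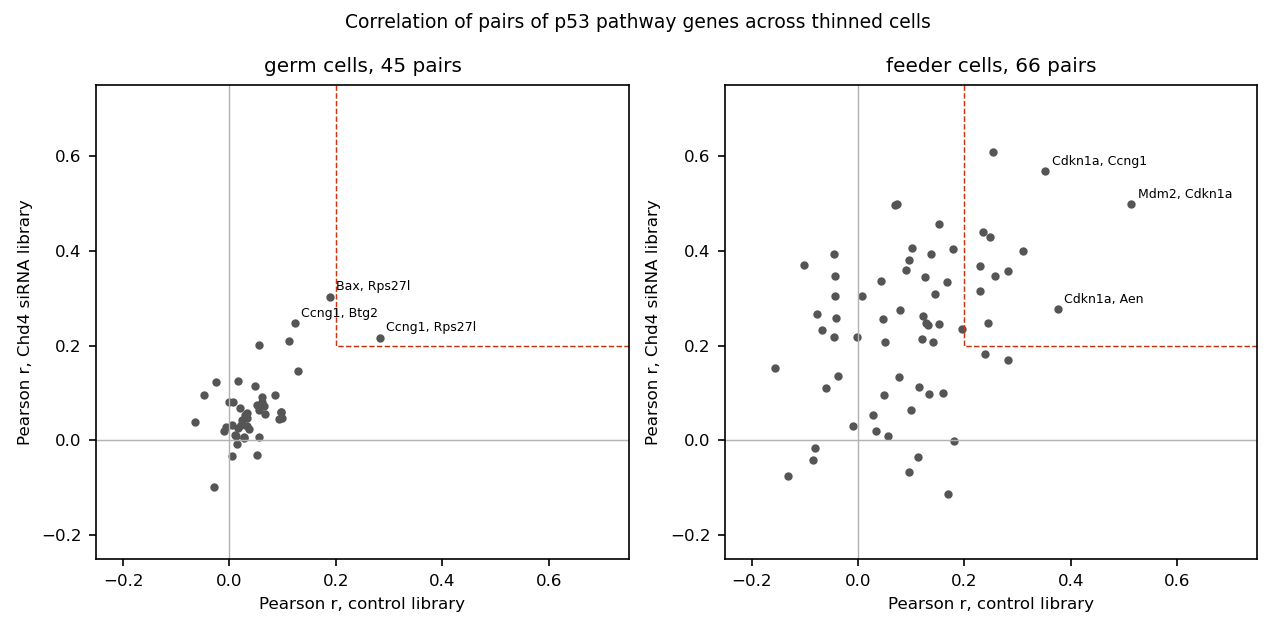
Pearson r of each pair of members across thinned cells, control library on the x axis and Chd4 siRNA library on the y axis, for germ and for feeder cells; dashed lines mark 0.2. Most of the 45 germ cell pairs lie near 0, with 1 over 0.2 in both libraries and 5 over it in the Chd4 siRNA library, and 12 of the 66 feeder cell pairs exceed 0.2 in both libraries.

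Feeder cells had enough UMIs for pairs of another set of members, which took in Cdkn1a, Phlda3, Zmat3, Gadd45a and Plk2, so the values are not set against those of germ cells. The 66 pairs among 12 members had a median r of 0.11 in the control library (75 cells) and 0.25 in the Chd4 siRNA library (84 cells), and 12 pairs exceeded 0.2 in both, 7 of them with Cdkn1a. Cdkn1a with Mdm2 had 0.51 and 0.50, or 0.37 and 0.44 without the 2 cells highest in Cdkn1a. Cdkn1a with Ccng1 had 0.35 and 0.57, or 0.25 and 0.48 without them. Cdkn1a with Plk2 rested on those 2 cells, since 0.31 and 0.40 became -0.12 and 0.05 without them. The points of each r share a library, and none of these values carries a test.

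The relation of the targets as a group to the Chd4 level of a single cell differed between the libraries, with r near 0 in both. Germ cells of the control library with 0, 1 to 2 and 3 or more Chd4 UMIs (23, 140 and 503 cells) held 15.9, 19.1 and 18.4 UMIs of the 30 targets per 10000. In the Chd4 siRNA library such cells (126, 315 and 256) held 21.5 (20.7 to 22.4), 19.7 (19.2 to 20.2) and 18.8 (18.3 to 19.4) per 10000. The interval of cells without a Chd4 UMI thus lay above the other intervals there. Without thinning these values were 15.1, 18.0 and 18.9 in the control library and 22.6, 20.3 and 19.7 in the Chd4 siRNA library. The order of the strata differed between the libraries, the SD over cells within a stratum was 7.53 to 11.6, and r with the Chd4 UMIs of the cell was 0.03 and -0.08. Cdkn1a had 0.53, 0.64 and 0.47 UMIs per 10000 in the control library and 0.99, 0.44 and 0.44 in the Chd4 siRNA library. Ccng1 had 1.21, 0.94 and 0.76, and 1.38, 1.01 and 0.92. Without thinning, the control library had 11 cells without a Chd4 UMI, in which Ccng1 was at 0.34 and Cdkn1a at 0.11 per 10000, against 0.84 and 0.52 in cells with 3 or more. No order of the strata was therefore shown for these genes in the control library without thinning. In the Chd4 siRNA library the unthinned values were 1.56, 1.16 and 1.01 for Ccng1 and 1.03, 0.62 and 0.48 for Cdkn1a. Cells without a Chd4 UMI were highest there, as after thinning.

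**Figure D5:**
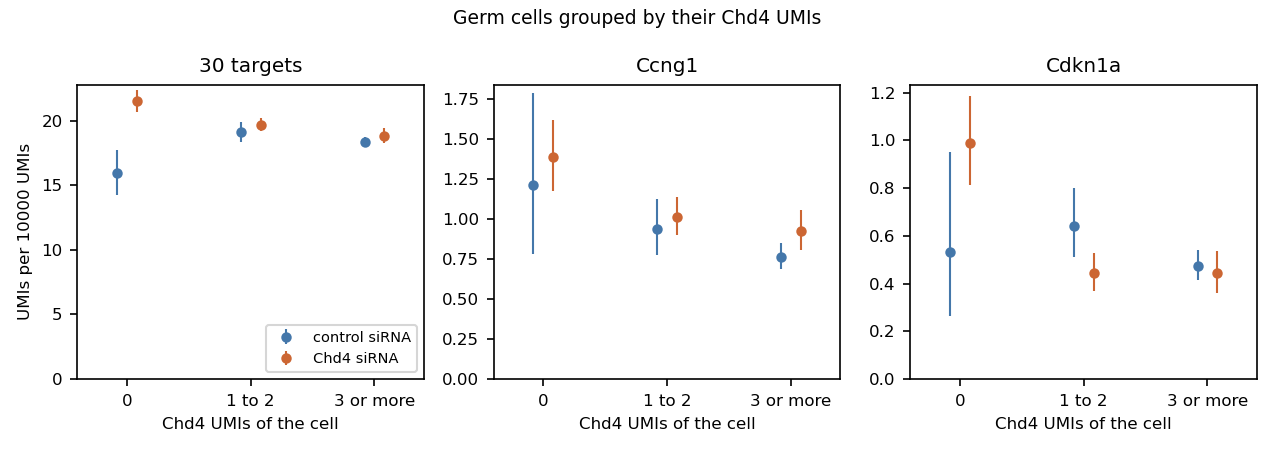
UMIs per 10000 of the 30 targets together, of Ccng1 and of Cdkn1a in germ cells with 0, 1 to 2 and 3 or more Chd4 UMIs after thinning to 9000 UMIs, with 95% intervals for counting error. In the Chd4 siRNA library the cells without a Chd4 UMI hold 21.5 target UMIs and 0.99 Cdkn1a UMIs per 10000, the highest of the 3 groups of that library, and in the control library these cells hold 15.9 and 0.53.

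Comparing cells without a Chd4 UMI with those that held 3 or more, 4 of 26 members were apart and higher in the Chd4 siRNA library (Cdkn1a, Ccng1, Pidd1 and Rps27l), against 1.46% of genes, and 1 was lower (Epha2), against 2.30%. In the control library 0 of 28 were higher, against 1.21%, and 1 was lower (Trp53), against 1.44%, with 23 cells in the smaller group. Of the 21 germ cells with 4 or more Cdkn1a UMIs, 8 had no Chd4 UMI. Leaving out all 21 lowers the Cdkn1a level by construction, and it then stood at 0.55 UMIs per 10000 in cells without Chd4 and at 0.33 in the other cells. Of the 16 such cells of the control library, 0 lacked a Chd4 UMI. Without those 16, Cdkn1a stood at 0.53 in control cells without Chd4 and at 0.39 in the other cells. The difference between the libraries was not tested.

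Other genes of the pathway were listed beside the members with earlier results of these data known. Of 23 further p53 targets, 7 could be counted in germ cells (median log2 ratio -0.01). With Chd4 siRNA 0 of these 7 were at least 1.2-fold higher, against 8.31% of genes, and 0 lower, against 5.62%. Ckap2, a spindle protein gene, went from 54.1 to 46.4 CPM, a ratio of -0.22 (-0.39 to -0.06). In feeder cells 1 of 4 was higher, against 14.9% of genes. That gene, the microtubule regulator Psrc1, went from 55.4 to 78.5 CPM (0.50, from 0.22 to 0.78). Between the classes, 9 of the further targets could be counted. The adenylate kinase gene Ak1 and Psrc1 were higher in feeder cells, where 14.1% of genes were. The metabolic regulator Tigar was higher in germ cells, where 30.9% of genes were.

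Of 20 regulators of p53, 18 could be counted in germ cells and 2 were higher with Chd4 siRNA, a share near the 8.31% of all genes. Intervals lay above 1 for 6 of 18, against 19.0% of genes, and below 1 for 1, against 8.43%. Daxx, a histone chaperone that binds Mdm2, went from 29.8 to 38.3 CPM (0.36, from 0.16 to 0.57), and Atr, a kinase of the DNA damage checkpoint, from 30.4 to 38.7 CPM (0.35, from 0.15 to 0.55). Cdkn2a, which encodes the Mdm2 inhibitor ARF and the kinase inhibitor p16, went from 157 to 181 CPM (0.20, from 0.11 to 0.30). In feeder cells 1 of 5 was higher, the ubiquitin ligase gene Rchy1 (0.36, from 0.13 to 0.58), against 14.9% of genes. Intervals lay above 1 for 3 of these 5, against 17.0% of genes, and below 1 for 0, against 15.7%. Between the classes 8 of 16 regulators were higher in germ cells, where 30.9% of genes were, among them the damage kinases Atm, Atr, Prkdc, Chek1 and Chek2, and 1, the ubiquitin ligase gene Rfwd2, was higher in feeder cells. The regulators had a median log2 ratio of feeder over germ of -1.03 and -1.45, and all genes -0.43 and -0.50.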

How the data were processed

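UMIs were counted per gene and cell in 2 single-cell libraries (10x Genomics v2), 1 per siRNA. Values in the deposited matrices are raw counts of UMIs, per the file headers. Cell Ranger 2.1.0, Seurat and mm10 are named in the submitters' processing notes, without roles. The sources used here give neither the filter on cells before deposit nor whether counting used strand.

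The gene list used names 26893 rows. The other 1105 rows (12.1% and 12.6% of UMIs) stayed out of all totals. Each matrix ends inside its last cell, which was dropped, leaving 816 and 860 complete cells with 14826257 and 15920307 UMIs. Of these, 2 under 1000 UMIs were removed, and 9 per library with equal marker counts went into no class. Doublets were not called: germ cells with 5 or more feeder marker UMIs, or the reverse, were left out as an alternative. The libraries shared 1 cell barcode, of 817 and 799 read.

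UMIs were summed per class and library and divided by the total (CPM). Ratios have exact conditional binomial (Clopper-Pearson) 95% intervals and sums exact Poisson intervals. With 1 library per group there was no test. Levels were not compared between genes, since 3′ UMI counts are not per length. Counts per cell used cells thinned at random to 9000 UMIs, with 62 and 63 germ and 4 and 5 feeder cells too shallow. The steps were tested on simulated counts.

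Members and lists were chosen with earlier results of these data known. All 32 members are accounted for. Full values were due to the 6 highest and 6 lowest by the interval bound nearest 0 in each class, to Trp53, Mdm2, Mdm4 and Cdkn1a, to the 6 highest and lowest of feeder over germ, and to up to 3 genes of other lists. Strata of Cdkn1a, comparisons of all genes between strata, added pairs and printed promoter stretches were chosen after seeing the data, and the stretches shown were widened from up to 1 to up to 2 mismatches. Exons overlap a gene on the same strand for Bax (Gm45808) and on the other strand for Cdkn1a, Gadd45a, Plk3, Ei24, Tnfaip8, Ddb2 and Rrm2b, so reads may be shared. Positions are from GENCODE vM21 (GRCm38), and promoters from RefSeq (GRCm38.p6).

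Python 3.11.15 (numpy 2.4.6, scipy 1.17.1, pandas 2.3.3, matplotlib 3.10.9) was used, and edgeR 4.0.16 and DESeq2 1.42.0 in R 4.3.3 for scaling factors alone. Alternatives were TMM and DESeq2 scaling, mean per-cell CPM, a stricter class split, other minimum counts and folds, thinned cells, equal weight for 3 groups of cells by cell cycle and by stress genes, and unthinned correlations.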

Additional observations from a re-analysis of the deposited data

How the results depend on the processing

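No paired analysis was possible because each siRNA has 1 library, in which the replicates were pooled. Under the alternatives, 129 of 154 summary values and 728 of 807 values of single genes moved by less than their counting interval or 1.5 times. Of the single genes, 77 moved further and 2 reversed, among them 24 in thinned cells and, since a factor shifts every ratio between the classes, 22 with DESeq2 and 13 with TMM factors. Ratios that changed sign without being called included Pidd1 in germ cells, down to -0.55 (0.01 in the report), and in thinned feeder cells Trp53, to 0.19 (-0.13), and Ccng1, to 0.26 (-0.09). Mdm2 between the classes went from 0.55 to 0.16 in thinned control cells. The summary values that moved are these. With DESeq2 factors 1 member was lower in feeder cells (2 in the report) and the class median of the Chd4 siRNA library was 0.73 (0.47). Bax reversed between the classes of that library, to 0.12 with TMM and 0.16 with DESeq2 factors. Without mixed cells 5 members were higher in germ cells (3). In thinned cells, which hold fewer UMIs, feeder cells had 2 members higher (6), 0 lower (2) and 2 intervals above 1 (6). Between the classes 4 members were higher in thinned feeder cells (7). The thinned class medians, over fewer members, were 0.16 (0.51) and 0.19 (0.47). A minimum of 50 UMIs gave 3 members lower in germ cells (1), 11 higher in feeder than germ cells (7), 5 higher in germ than feeder cells (3) and a control class median of 0.76. A minimum of 500 gave 3 higher (6) and 1 lower (2) in feeder cells. At 1.5-fold the counts of higher and lower members were 0 in germ and 0 in feeder cells, and at 4-fold 3 members were higher in feeder than germ cells (7). With equal weight for 3 groups of cells by G2/M gene UMIs, 5 members were higher and 2 lower in germ cells, and by stress genes 2 were lower (1). Without the cells of 4 or more Cdkn1a UMIs, an alternative added after seeing the data, 1 member was higher (3) and 4 intervals lay above 1 (7). The cause of these differences was not tested beyond the loss of UMIs. Over the alternatives Ccng1 in germ cells ranged from 0.23 to 0.42, Phlda3 from 0.22 to 0.52, Ei24 from 0.25 to 0.35, Ptp4a3 from -0.61 to -0.50 and Cdkn1a from -0.09 to 0.12. In feeder cells Cdkn1a ranged from 0.26 to 0.44, Plk2 from 0.31 to 0.61, Gadd45a from 0.07 to 0.37 and Rps27l from -0.34 to -0.12. Depth limits the members under 200 UMIs, 9 in germ and 15 in feeder cells.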

Other observations

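In germ cells of the Chd4 siRNA library, the genes that stood farthest above the lowest stratum in cells with 4 or more Cdkn1a UMIs included the chemokine genes Ccl5, Cxcl10, Ccl2 and Ccl7 and the p53 targets Psrc1 and Sesn2, beside Phlda3 and Ccng1. In germ cells of the control library the leading genes included Ccng1, Bbc3, Phlda3, Btg2 and Trp53inp1, and no chemokine gene was among the 15 that led. Feeder cells had the chemokine genes Ccl5 and Cxcl1 among their leading 15 in the control library, and Cxcl1 in the Chd4 siRNA library. These genes were read from the comparison of all genes after it had been made, and the difference between the libraries was not tested.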
